A study of Mus musculus with 8 samples.

Results

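The platelet-derived growth factor (PDGF) family was followed in whole prostate with and without *Olfm4*, through the ligand genes *Pdgfa*, *Pdgfb*, *Pdgfc* and *Pdgfd*, the receptor genes *Pdgfra* and *Pdgfrb* and the receptor-like gene *Pdgfrl*. Every probe set annotated to 1 of these symbols alone was taken, which gave 15 probe sets for 7 of the 18193 genes that have at least 1 such probe set. A probe set is a group of short probes that together read 1 transcript region on an Affymetrix array. *Olfm4* encodes olfactomedin 4, a secreted glycoprotein. The series compared *Olfm4* (-/-) with *Olfm4* (+/+) prostate at 3 months of age, with 4 untreated mice of each genotype and 1 mouse on each array. Mice of both genotypes had a mixed background, 50% from 129/SV and the other 50% from National Institutes of Health Black Swiss, and the line was kept by mating heterozygotes. The allele is a germline knockout, so *Olfm4* was lost in every tissue of the mouse and not in the prostate alone. The values are log2 intensities made by the authors with the RMA algorithm, and either genotype had 2 arrays on each of 2 array days, taken from the day in the sample titles.

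PDGF ligands are secreted dimers that bind receptor tyrosine kinases on neighbouring cells. PDGF-A and PDGF-C act mainly on PDGF receptor alpha, a receptor of fibroblasts and other mesenchymal cells, while PDGF-D acts mainly on PDGF receptor beta, which is typical of pericytes and smooth muscle cells, and PDGF-B on both. PDGF-C and PDGF-D are released in latent form and become active once proteases remove their CUB domain. In the prostate, as in other glands, ligands often come from epithelium and endothelium, and the receptors lie mainly in the stroma around the glands.

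*Pdgfd* was lower in *Olfm4*-knockout prostate by 2.66 (standard error 0.28) on the log2 scale at its brightest probe set. Its groups did not overlap at any of its 3 probe sets, of which the dimmest was near background in both groups. Over all probe sets, 5.03% had groups that did not overlap with knockout lower. *Pdgfra* had a higher mean in knockout prostate at all 3 of its probe sets, by 0.16 to 0.34 on the log2 scale, and at each of them the groups overlapped. The other members differed by less than 0.38 in either direction. The family was chosen by these values, the knockout minus wild-type differences of *Pdgfd* and *Pdgfra* on these arrays, so the genotype differences of all members are given as a description, without p-values, and a count of calls among them is not evidence.

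The promoters of these genes are shown first, since *Pdgfd* and *Pdgfra* are the members for which the family was chosen and the study counts *Pdgfra* among genes induced by hedgehog signaling. The 250 bases before the annotated start are from RefSeq on GRCm38.p6 and run 5′ to 3′ towards the gene. The *Pdgfd* window is chr9:6168236-6168485 on the plus strand, and the *Pdgfra* window is chr5:75152001-75152250 on the plus strand. Capitals mark a match to TATAAA, the letters searched for as a TATA box.
Pdgfd: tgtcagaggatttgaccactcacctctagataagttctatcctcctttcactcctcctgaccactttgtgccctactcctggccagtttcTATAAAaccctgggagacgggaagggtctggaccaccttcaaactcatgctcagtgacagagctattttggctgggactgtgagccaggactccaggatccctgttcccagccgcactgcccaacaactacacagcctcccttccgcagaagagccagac
Pdgfra: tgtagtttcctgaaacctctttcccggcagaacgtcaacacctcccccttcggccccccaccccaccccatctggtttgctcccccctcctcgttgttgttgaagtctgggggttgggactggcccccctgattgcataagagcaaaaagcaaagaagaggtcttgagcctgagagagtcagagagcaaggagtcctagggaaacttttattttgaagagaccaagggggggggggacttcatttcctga
The windows were searched on both strands for a GLI site (GACCACCCA), a TATA box (TATAAA), a GC box (GGGCGG) and a CCAAT box (CCAAT). Only exact matches were counted. The *Pdgfd* window held a TATAAA match that starts 160 bases before the annotated start, and no other match. Such a match was found in 12.4% of all 32851 promoter windows of this length, and whether it acts as a TATA box was not tested. The *Pdgfra* window held none of the 4 motifs. The GLI site occurred in 0.225% of all windows. The table also held *Pdgfc*, without a match, and both promoters of *Pdgfa*, which held GC boxes 60, 86 and 93 bases before their starts (GC boxes were in 32.7% and CCAAT boxes in 33.8% of all windows). G and C made up 53.6% of the *Pdgfd*, 54.4% of the *Pdgfra* and 50.8% of the *Pdgfc* window, near the median of 52.4%, against 66.4% and 72.4% for *Pdgfa*.

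The arrays agreed closely, with medians between 6.03 and 6.09 on the log2 scale and correlations between 0.983 and 0.996. *Olfm4* itself read 10.48 ± 0.25 (SD, n = 4) on the log2 scale in wild-type and 3.11 ± 0.10 (SD, n = 4) in knockout prostate. Knockout array 1 and wild-type array 1 carried much seminal vesicle transcript, 3.37 and 3.71 above the mean of the 8 arrays on the log2 scale over 6 markers. On average over 5 prostate secretory products, knockout array 1 was 1.06 below the mean of the 8 arrays. That low average came from *Msmb*, *Spink1* and *Apof* (10.82 on that array). On the same array *Pbsn* (13.76) and *Tgm4* (14.21) lay within the range of the other arrays. The secretory product gene *Pbsn*, which defines prostate epithelium, was bright in both groups, with mean log2 values of 13.85 in knockout and 13.73 in wild-type prostate. *Pbsn* does not stand for the whole list of 5 products. Their log2 differences, knockout minus wild type, ran from -0.70 to 0.12, with a median of -0.26. Of these differences, 3 were negative and 2, that of *Pbsn* among them, were positive. The negative *Msmb* and *Spink1* differences came from knockout array 1. *Msmb* read 11.09 there, 14.14 to 14.35 on the other knockout arrays and 14.09 to 14.22 on the wild-type arrays. *Spink1* read 12.88 there, 14.15 to 14.42 on the other knockout arrays and 14.17 to 14.21 on the wild-type arrays. Values without knockout array 1 or wild-type array 1 are given beside the members they touch.

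Among the ligands, *Pdgfd*, whose product PDGF-D binds PDGF receptor beta, differed most. At the brightest probe set (1456532_at) its log2 values on knockout arrays 1 to 4 were 7.63, 9.10, 8.21 and 8.55, and on wild-type arrays 1 to 4 they were 10.88, 11.08, 11.13 and 11.02. The highest knockout array lay well below the lowest wild-type array. The wild-type mean was 11.03 ± 0.11 (SD, n = 4) and the knockout mean 8.37 ± 0.62 (SD, n = 4), a 6.31-fold lower intensity. The difference was -2.57 on array day 1 and -2.74 on array day 2. Whether fewer cells made *Pdgfd* or each cell held less of its RNA cannot be told apart in whole tissue.

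The second *Pdgfd* probe set (1426319_at) had the same order of groups at lower brightness. Its log2 values were 4.30, 4.72, 4.95 and 4.66 in knockout and 6.93, 6.60, 6.56 and 6.29 in wild-type prostate. The measured difference was -1.93 (standard error 0.17). The knockout values sat between percentiles 25.1 and 35.5 of all probe sets on their arrays, close to background, so this is read as a lower bound in size. The third *Pdgfd* probe set (1446691_at) was dim throughout, with log2 values of 3.85, 3.69, 3.65 and 3.84 in knockout and 3.92, 4.38, 4.29 and 3.90 in wild-type prostate. Its measured difference was -0.36 (standard error 0.10), and since both groups were near background no size is read from it.

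The knockout arrays were unequal in *Pdgfd*. At the brightest probe set they spanned 1.47 on the log2 scale, whereas the wild-type arrays spanned 0.25, and the knockout SD of 0.62 stood at percentile 95.4 of 18193 genes. Knockout array 1 was the lowest and knockout array 2 the highest, and both were run on the same day. The difference was -2.35 when knockout array 1 was left out and -2.33 when wild-type array 1 was left out as well. At the second probe set the order was different, with knockout array 1 lowest and knockout array 3 highest.

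Of the 15 member probe sets, 2 were called at an adjusted p under 0.05 in limma, the linear model with moderated variance that was fitted to all probe sets. Both belong to *Pdgfd* and were lower in knockout prostate. Neither was called in analysis of variance without array day or on either array day alone. The call of the brightest was also lost when any wild-type array or knockout array 3 or 4 was left out, and that of the second under the replicate block and when array 2 of either genotype, wild-type array 3 or knockout array 4 was left out. Over all probe sets, 0.0511% were called lower and 0.111% in either direction. The groups did not overlap at 3 of the 15, all of *Pdgfd* and with knockout lower, where the share over all probe sets was 5.03%. Nothing further is read from these counts, since this contrast chose the members.

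**Figure D1:**
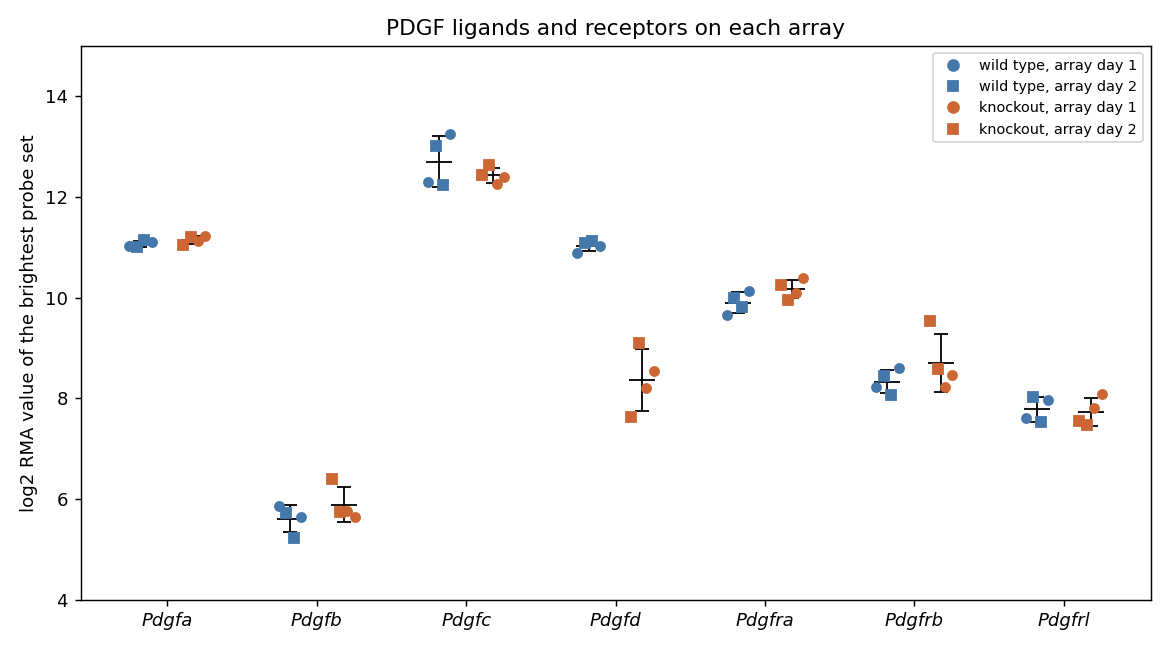
Log2 RMA value (vertical axis) of the brightest probe set of each PDGF gene on each of the 8 arrays, with wild type in blue and knockout in orange, circles for array day 1 and squares for array day 2, and black lines for mean ± SD of 4 arrays. The knockout arrays of *Pdgfd* lie between 7.63 and 9.10, all below the wild-type arrays at 10.88 to 11.13, while the groups overlap for every other gene drawn. Heights are not comparable between genes.

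*Pdgfa*, whose product PDGF-A binds PDGF receptor alpha, was steady. Its brightest probe set (1449187_at) read 11.05, 11.20, 11.12 and 11.22 on knockout arrays 1 to 4 and 11.02, 11.00, 11.14 and 11.10 on wild-type arrays 1 to 4, on the log2 scale. The difference was 0.083 (standard error 0.071). The other probe set (1418711_at) read 8.45, 8.00, 8.35 and 8.28 in knockout and 8.55, 8.33, 8.41 and 8.40 in wild-type prostate, with a difference of -0.15 (standard error 0.10). The probe sets thus differed in direction, the groups overlapped at both, and the mean over both differed by -0.034. The SD of *Pdgfa* was 0.080 in knockout and 0.069 in wild-type prostate, below the medians of 0.14 and 0.12 over all genes.

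*Pdgfb*, a ligand gene typical of endothelium and platelets, was dim. Its brightest probe set (1450414_at) had log2 values of 6.40, 5.74, 5.75 and 5.64 in knockout and 5.85, 5.72, 5.23 and 5.63 in wild-type prostate. Knockout array 1 stood above the other 7 arrays. The difference was 0.27 (standard error 0.20), but 0.078 without knockout array 1 and 0.11 without wild-type array 3, and it was -0.04 on array day 1 and 0.59 on array day 2. The second probe set (1450413_at) had log2 values of 4.50, 4.43, 4.63 and 4.47 in knockout and 4.47, 4.40, 4.22 and 4.54 in wild-type prostate, a difference of 0.10 (standard error 0.074).

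*Pdgfc*, whose product PDGF-C is the other latent ligand, was uneven among wild-type mice. Its brightest probe set (1419123_a_at) had log2 values of 12.43, 12.63, 12.25 and 12.40 in knockout and 12.30, 13.02, 12.24 and 13.25 in wild-type prostate. Wild-type arrays 2 and 4, which were run on different days, were the highest, and the other wild-type arrays lay within or just below the knockout range. The same 2 arrays were the highest at the other probe set (1449351_s_at), with 12.11 and 12.51, where wild-type arrays 1 and 3 had 11.27 and 11.22 and the knockout arrays 11.56, 11.93, 11.22 and 11.50. The differences were -0.28 (standard error 0.24) and -0.23 (standard error 0.32). The wild-type SD of 0.51 at the brightest probe set stood at percentile 96.8 of all genes, against 55.6 for the knockout SD of 0.15. The difference at that probe set was -0.45 on array day 1 and -0.10 on array day 2. Leaving out wild-type array 4 gave -0.05 and leaving out wild-type array 2 gave -0.15, whereas leaving out wild-type array 3 or 1 gave -0.47 or -0.43.

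Of the receptors, *Pdgfra*, the gene of PDGF receptor alpha, had a higher mean in knockout prostate. Its brightest probe set (1421917_at) had log2 values of 10.25, 9.96, 10.09 and 10.38 on knockout arrays 1 to 4 and 9.66, 10.002, 9.80 and 10.13 on wild-type arrays 1 to 4. Wild-type arrays 2 and 4 lay inside the knockout range, and wild-type array 1 was the lowest of all 8. The difference was 0.27 (standard error 0.13), a fold of 1.21. It was 0.34 on array day 1 and 0.20 on the other day. Leaving out arrays gave 0.16 without wild-type array 1, 0.23 without knockout array 1 and 0.081 without both. The second probe set (1438946_at) had log2 values of 6.96, 6.59, 6.63 and 7.13 in knockout and 6.30, 6.63, 6.42 and 6.59 in wild-type prostate, a difference of 0.34 (standard error 0.15). The third (1421916_at) had 5.78, 5.38, 5.32 and 5.30 in knockout and 5.43, 5.18, 5.26 and 5.25 in wild-type prostate. Its difference of 0.16 (standard error 0.12) was 0.045 without knockout array 1, which stood apart from the others. Knockout arrays 1 and 4 were the highest of the 8 at both brighter probe sets.

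*Pdgfrb*, the gene of the receptor for PDGF-B and PDGF-D, was high on knockout array 1. The brightest probe set (1436970_a_at) had log2 values of 9.54, 8.58, 8.22 and 8.47 in knockout and 8.22, 8.44, 8.07 and 8.59 in wild-type prostate. The other 3 knockout arrays lay within the wild-type range. The difference of 0.37 (standard error 0.26) was 0.093 without that array, 0.038 without it and wild-type array 1, and 0.21 without wild-type array 3. It was -0.06 on array day 1 and 0.81 on array day 2. The second probe set (1417148_at) read 8.51, 7.90, 7.94 and 7.92 in knockout and 7.83, 7.99, 7.85 and 8.00 in wild-type prostate, and its difference of 0.15 (standard error 0.14) was 0.0044 without knockout array 1.

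*Pdgfrl* encodes a secreted protein that resembles the ligand-binding part of the PDGF receptors and has no kinase. Its probe set (1428896_at) had log2 values of 7.55, 7.48, 7.80 and 8.09 in knockout and 7.62, 8.02, 7.53 and 7.97 in wild-type prostate. The groups overlapped throughout, with a difference of -0.052 (standard error 0.15) that was 0.16 on array day 1 and -0.26 on array day 2.

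**Figure D2:**
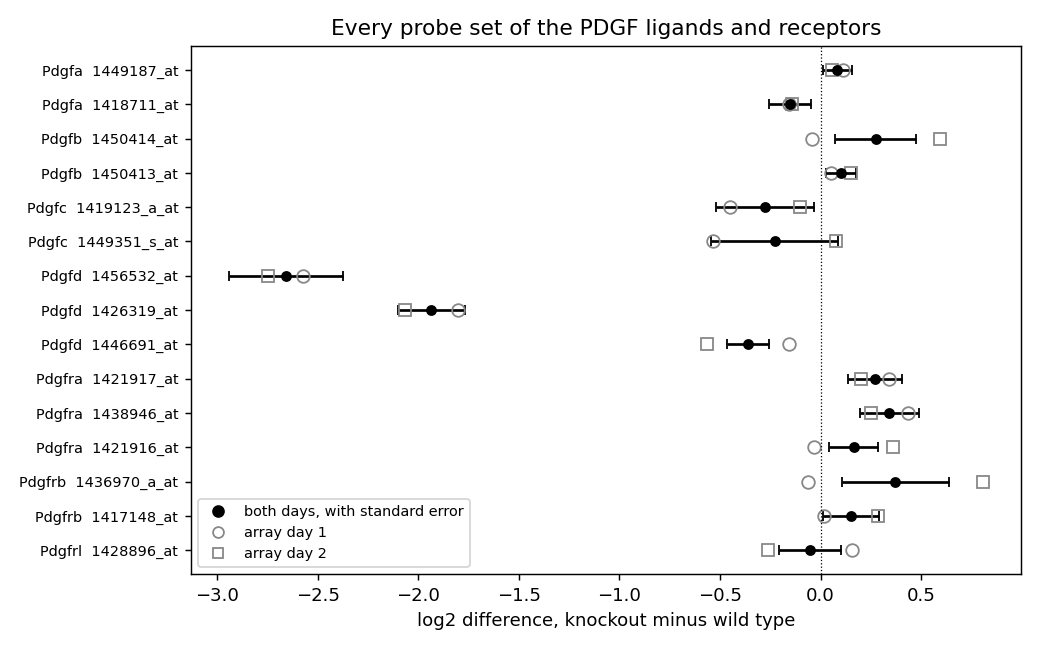
Log2 difference, knockout minus wild type (horizontal axis), of every probe set of the PDGF genes, with black points and lines for the estimate and its standard error over both days, and open circles and squares for array days 1 and 2. The brighter *Pdgfd* probe sets lie at -2.66 and -1.93 and have the same sign on both days, while *Pdgfb* and *Pdgfrb* differ mainly on array day 2, the day of knockout array 1.

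Array day, which did not enter the choice of members, was tested next. No member probe set had an array-day effect at an adjusted p under 0.05 in limma (adjusted p from 0.950 to 0.996), and 0 of 15 had an unadjusted p under 0.05, where the shares over all probe sets were 0% and 4.62%. The largest day difference was 0.29 at *Pdgfrb*. No member had a genotype difference that changed between days at an adjusted p under 0.05, where 0.00222% of all probe sets did, and 1 of 15 had an unadjusted p under 0.05, where 4.9% of all did. That was the dimmest *Pdgfd* probe set, with a change of -0.41 between days (adjusted p = 0.890 from limma). It was 0.87 for *Pdgfrb* (standard error 0.46, limma adjusted p = 0.890) and for *Pdgfd* at its brightest probe set -0.17 (standard error 0.61, adjusted p = 0.971). With 2 arrays per genotype and day these changes were measured loosely.

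Stromal and vascular markers were read on the same arrays, since the PDGF receptors belong to these cells. All 8 fibroblast markers had a higher mean in knockout prostate, with a median difference of 0.35 on the log2 scale. None was called by limma at an adjusted p under 0.05, where 0.17% of all genes were. At an unadjusted p under 0.05, 3 were higher, where 6.27% of all genes were. The mean level of the fibroblast markers was 10.24 to 10.70 over the knockout arrays and 9.997 to 10.29 over the wild-type arrays. Within this list *Fbln1*, which encodes fibulin 1, had a log2 difference of 0.44 (adjusted p = 0.239), *Mfap5*, a microfibril gene, 0.42 (adjusted p = 0.270) and *Dpt*, the dermatopontin gene, 0.45 (adjusted p = 0.369). Other probe sets of *Fbln1* had 0.26 and -0.047, and that of *Mfap5* 0.21. Knockout arrays 1 and 4, the highest for *Pdgfra*, were also the highest for these markers, 0.42 and 0.24 above the mean of the 8 arrays. Without knockout array 1 all 8 stayed higher in mean with a median of 0.19, and without it and wild-type array 1 these were 7 of 8, again with a median of 0.19. The part of fibroblast content in the *Pdgfra* difference was not tested.

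Markers of pericytes, the cells that carry PDGF receptor beta along small vessels, were higher in mean for 5 of 8. Their median difference was 0.074, and none was called by limma. Of the 8, 1 was higher at an unadjusted p under 0.05, where 6.27% of all genes were. That was *Rgs5*, a G-protein regulator of pericytes, with 0.58 (adjusted p = 0.292), while its remaining probe sets had 0.55, 0.68 and 0.071. The mean level of the pericyte markers was 8.03 to 8.51 over knockout and 8.02 to 8.26 over wild-type arrays. Smooth muscle markers were higher in mean for 6 of 8 (median 0.017) and endothelial markers for 4 of 7 (median 0.059), none of them called or past an unadjusted p under 0.05. Mean levels were 12.43 to 12.93 over knockout and 12.45 to 12.62 over wild-type arrays for smooth muscle markers, and 7.39 to 7.97 and 7.37 to 7.67 for endothelial markers. These 3 lists turned in direction without knockout array 1, when 3 of 8 pericyte (median -0.068), 1 of 8 smooth muscle (median -0.096) and 2 of 7 endothelial markers (median -0.065) were higher in mean. Without that array 3 pericyte, 1 smooth muscle and 0 endothelial markers had an unadjusted p under 0.05 in either direction. The share of all genes in that fit was not counted. Of the platelet markers, with mean levels of 7.00 to 7.74 over knockout and 6.75 to 7.14 over wild-type arrays, all 4 were higher in mean (median 0.25), none was called, and 2, *Gp9* (0.26, adjusted p = 0.325) and *Ppbp* (0.24, adjusted p = 0.338), were higher at an unadjusted p under 0.05.

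Knockout array 1, which had the highest *Pdgfb* and *Pdgfrb*, was the highest array for every one of these stromal and vascular lists. It stood above the mean of the 8 arrays by 0.42 for fibroblast, 0.34 for pericyte, 0.38 for smooth muscle, 0.43 for endothelial and 0.64 for platelet markers, and by 1.02 for *Pdgfrb* and 0.65 for *Pdgfb*. The part of these cells in the *Pdgfb* and *Pdgfrb* values was not tested. Basal epithelial markers were higher in mean for 5 of 5 (median 0.21, 1 at an unadjusted p under 0.05), luminal markers for 1 of 5 (median -0.0088) and macrophage markers for 1 of 6 (median -0.042), and none was called. The share of genes called in either direction was 0.17%, and 46.2% of all genes had a higher mean in knockout prostate.

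**Figure D3:**
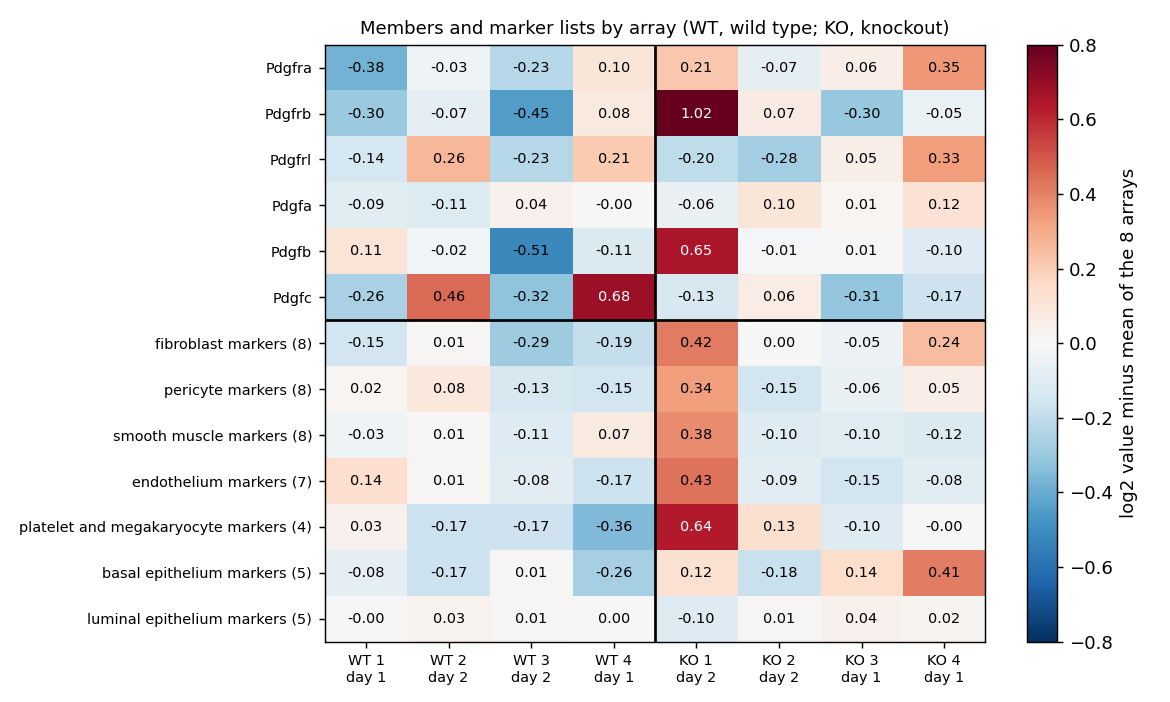
Log2 value minus the mean of the 8 arrays, for PDGF genes at their brightest probe set (upper rows) and for the mean of each marker list (lower rows, number of genes in brackets), by array, with red above and blue below the mean and colours limited at 0.8. Knockout array 1 is the highest for *Pdgfrb* (1.02), *Pdgfb* (0.65) and the fibroblast, pericyte, smooth muscle, endothelial and platelet lists. *Pdgfd* is not drawn.

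The other genes of the pathway were not used to choose the family. Of 86 listed, 78 were measured, 45 with a higher and 33 with a lower mean in knockout prostate. None was called by limma at an adjusted p under 0.05, where 0.17% of all genes were. An unadjusted p under 0.05 was reached by 11 higher genes, where 6.27% of all genes did so, and by 2 lower genes, where 8.49% did. Together these are 16.7% of the list, against 14.8% of all genes, and analysis of variance without array day gave 14 genes. The median log2 difference of the list was 0.042, and that of all genes -0.015.

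Of 12 genes of ligand processing and extracellular partners, 7 had a higher mean (median 0.021), and 4 higher genes and 1 lower gene had an unadjusted p under 0.05. *Plat*, which encodes tissue plasminogen activator, a protease that activates PDGF-C, had mean log2 values of 6.64 in knockout and 5.94 in wild-type prostate (difference 0.70, standard error 0.11, adjusted p = 0.102 from limma). Its dim second probe set had a difference of 0.042, and the mean of both 0.37. *Pcsk5*, the gene of a proprotein convertase, had a difference of 0.57 (adjusted p = 0.209) and from -0.037 to 0.26 at its other probe sets, with a mean over all of them of 0.25, and *A2m*, which encodes the growth-factor-binding protein alpha-2-macroglobulin, 0.22 (adjusted p = 0.288). The proteases that activate PDGF-D, urokinase and matriptase, were chosen for mention after their values were seen. *Plau*, the urokinase gene, had a difference of 0.26 (standard error 0.19, adjusted p = 0.608) at a low level of 4.60 in knockout and 4.34 in wild-type prostate. Its other probe set, with a mean of 3.64 over the 8 arrays, had 0.59 (adjusted p = 0.670 from limma). *St14*, the matriptase gene, had a difference of -0.14 (standard error 0.068, adjusted p = 0.458).

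Inside the cell, 27 of 33 listed genes of receptor-proximal signalling were measured, 12 with a higher and 15 with a lower mean (median -0.0017). At an unadjusted p under 0.05 these were *Yes1* (0.32, adjusted p = 0.318), a Src-family kinase gene, *Crk* (0.21, adjusted p = 0.343), an adaptor gene, and *Map2k2* (-0.15, adjusted p = 0.349), a MAP kinase kinase gene. Other probe sets of *Crk* had differences from -0.30 to 0.28, those of *Yes1* from -0.085 to 0.31, and that of *Map2k2* -0.096. Negative regulators of receptor signalling had a higher mean for 11 of 13 (median 0.071). At an unadjusted p under 0.05 these were *Spry4* (0.42, adjusted p = 0.284), which encodes a Sprouty inhibitor of the Ras pathway and had -0.017 to 0.29 at its other probe sets, and *Ptpn2* (0.41, adjusted p = 0.283), a tyrosine phosphatase gene whose other probe sets had differences from -0.10 to -0.0092. Immediate early and other genes known to be induced by PDGF were split, 6 with a higher and 6 with a lower mean (median 0.025), and *Has2*, a hyaluronan synthase gene, had 0.33 (adjusted p = 0.386) and 0.10 at its other probe set.

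Among related families, 6 of 8 ligand genes had a higher mean (median 0.085). *Kitl*, which encodes the ligand of the KIT receptor, had a difference of 0.73 (standard error 0.13, adjusted p = 0.140) at its brightest probe set, and its other probe sets had -1.15 (adjusted p = 0.0577), 0.51 and 0.42, so that its direction was not settled. *Vegfa*, the vascular endothelial growth factor gene, had 0.23 (adjusted p = 0.332), but -0.20 at its other probe set and 0.014 as the mean of both. The related receptor genes were split evenly, 3 and 3 (median -0.031), none of them past an unadjusted p under 0.05.

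**Figure D4:**
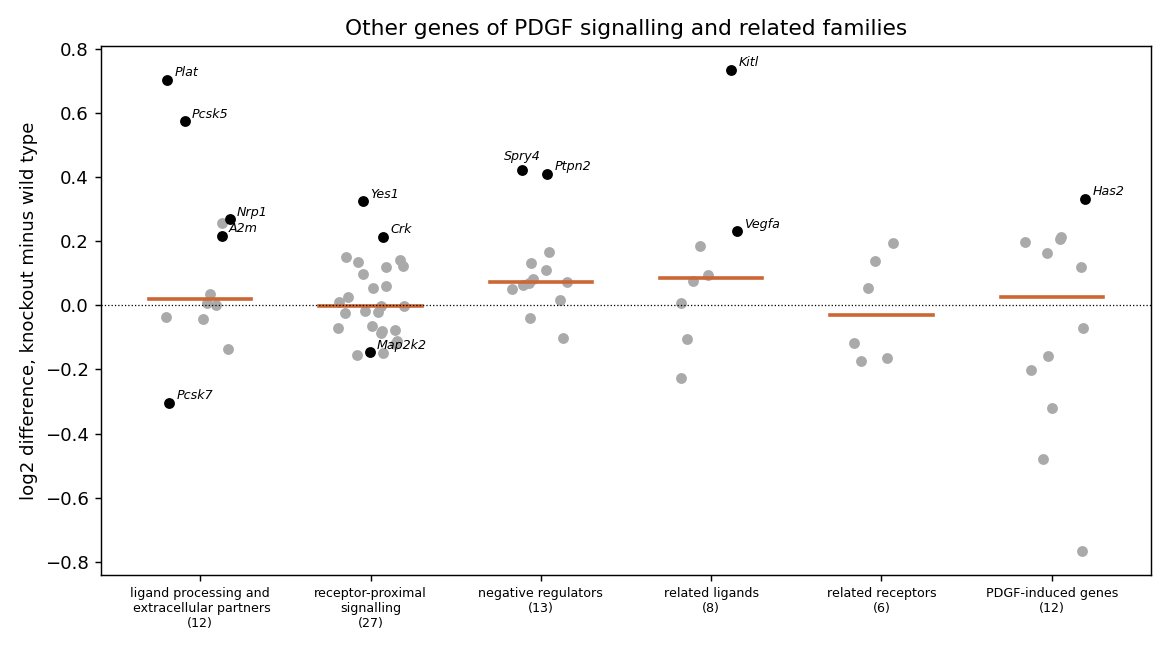
Log2 difference, knockout minus wild type (vertical axis), of each measured gene in 6 lists around the PDGF family, with 1 point a gene at its brightest probe set, sideways scatter for display only, orange bars for list medians and the number measured in brackets. Black named points had an unadjusted p under 0.05 in limma. None was called after adjustment, and the medians lie between -0.031 and 0.085.

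The position of *Pdgfd* on chromosome 9 gave a further comparison. Of the 10 measured genes on either side of it in the RefSeq order, 1 of 20 was called by limma at an adjusted p under 0.05, where 0.17% of all genes were, and 5 of 20 had an unadjusted p under 0.05, where 14.8% of all genes did. That was *Casp4*, an inflammatory caspase gene that lies 2 measured genes before *Pdgfd*. Its probe set (1449591_at) had log2 values of 4.68, 5.06, 5.16 and 4.84 in knockout and 7.46, 7.67, 7.18 and 7.80 in wild-type prostate, so the groups were far apart. The difference of -2.60 (standard error 0.15) had an adjusted p = 0.00116 in limma, and it is read as a lower bound in size because the knockout mean of 4.93 is near background. On either array day alone *Casp4* was not called (-2.63, adjusted p = 0.145, and -2.56, adjusted p = 0.263).

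The other genes around this pair differed by less, and none was called. *Casp12*, the caspase gene next to *Pdgfd*, had 0.42 (adjusted p = 0.469) and -0.063 at its second probe set, and *Casp1*, the gene of the interleukin-1-converting caspase, on the far side of *Casp4*, had -0.34 (adjusted p = 0.469). On the other side of *Pdgfd*, *Ddi1* had -0.23 (adjusted p = 0.370), *Dync2h1*, a ciliary dynein gene, -0.16 (adjusted p = 0.643), *Dcun1d5* -0.083, and the matrix metalloproteinase genes *Mmp13* and *Mmp12* -0.048 and 0.24. Further before it, *Gria4*, a glutamate receptor gene, had 0.54 (adjusted p = 0.399), while further probe sets of it had -0.042 and 0.030, and *Msantd4* had -0.20 (adjusted p = 0.298). For each of the other 6 members, 0 of 20 neighbours were called by limma, and 1 to 4 of 20 had an unadjusted p under 0.05. On chromosome 9 as a whole, 3 of 1002 genes were called, and the remaining gene was *Opcml*, with -0.70.

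**Figure D5:**
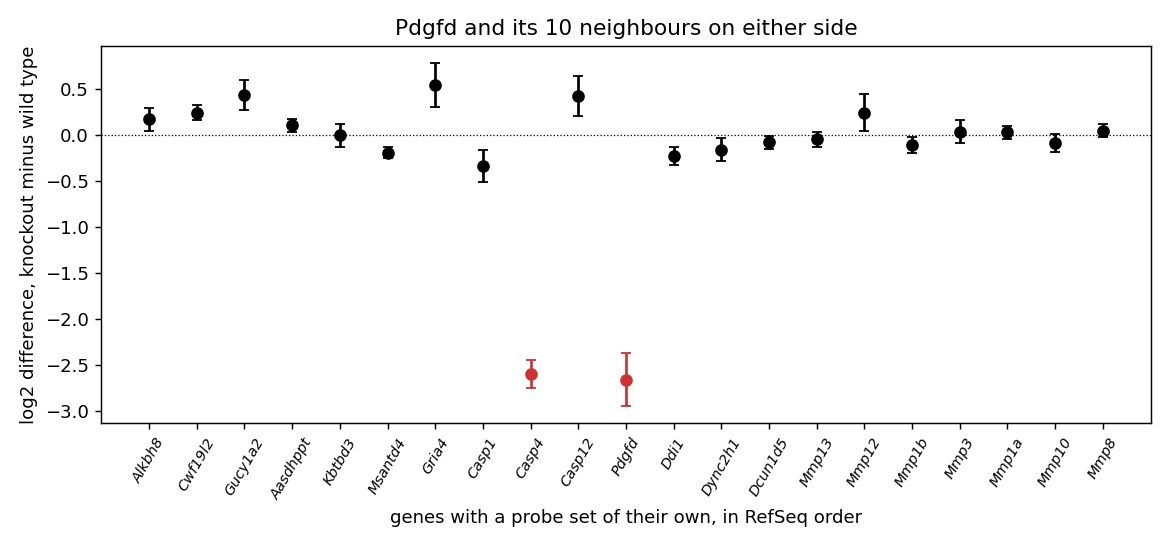
Log2 difference, knockout minus wild type (vertical axis), of *Pdgfd* and the 10 measured genes on either side of it, in the order of the RefSeq annotation, with lines for the standard error and red for an adjusted p under 0.05 in limma. *Casp4* (-2.60) and *Pdgfd* (-2.66) stand far below the others, which lie between -0.34 and 0.54.

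The genes whose pattern was most like that of a member were named by Pearson correlation over the 8 arrays, as a description, since the arrays share their preparation and RMA normalization and all 18193 genes were searched. For the log2 values of *Pdgfd* these were *Tesk1* (r = 0.973), *Lrch1* (r = 0.972) and *Taf5l* (r = 0.969). With the genotype means removed they were *Dcun1d1* (r = 0.991), *Aloxe3* (r = 0.984) and *Cyp2b9* (r = 0.983). For the receptors, with genotype means removed, they were *Med8* (r = 0.971), *Med12l* (r = 0.963) and *1700013H16Rik* (r = 0.952) for *Pdgfra*, *Adgra1* (r = 0.994), *H2bc21* (r = 0.992) and *Rbpms* (r = 0.989) for *Pdgfrb*, and *Arhgap42* (r = 0.977), *Hpse* (r = 0.970) and *B3gntl1* (r = 0.968) for *Pdgfrl*. For the other ligands they were *Pramel29* (r = 0.980), *Rpgrip1* (r = 0.962) and *Tmprss15* (r = 0.961) for *Pdgfa*, *Stx11* (r = 0.990), *Slc12a4* (r = 0.980) and *Tyms* (r = 0.972) for *Pdgfb*, and *Bhlhb9* (r = 0.967), *E2f5* (r = 0.965) and *A930004D18Rik* (r = 0.961) for *Pdgfc*. The r of the log2 values of *Pdgfd* includes the genotype difference by which it was chosen, and *Olfm4* itself had r = 0.959. With genotype means removed, the r of *Pdgfd* rests mainly on the knockout arrays (SD 0.62, against 0.11 in wild type). For *Pdgfb* and *Pdgfrb* it rests largely on knockout array 1, which stood 0.65 and 1.02 above the mean of the 8 arrays.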

How the data were processed

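Gene expression was measured with 8 Affymetrix Mouse Genome 430 2.0 arrays, 4 from *Olfm4*-knockout and 4 from wild-type prostate. The deposited values are on the log2 scale. The authors made them with RMA, which subtracts background, brings the arrays to 1 distribution and summarises the probes of a set, and which narrows differences near background. No RMA version is given in the sources used here. The methods name ANOVA in Partek and no covariates. They give 5 mice per genotype where the labels give 4 arrays, and the RNeasy kit where the labels give Trizol. The study also names mice of 15 months, not analysed here.

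Genotypes were compared with limma 3.58.1 (lmFit and eBayes, 2-sided) in R 4.3.3, with array day as a second term. After removal of 64 control probe sets, Benjamini-Hochberg adjustment ran over 45037 probe sets. Of these, 34945 had 1 gene symbol in the platform annotation, 932 had several and 9160 had none. The probe set with the highest mean stood for its gene. Of 18193 genes, 18032 were matched to RefSeq (GRCm38.p6), which was used for gene order and promoters. The files name no genome build. The p-values set a difference against the spread between mice that is left after the terms of the fit. That spread was moderated over all probe sets, and the number of arrays limits its precision.

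The members, gene lists and tests were chosen with earlier results of these data known. The lists cover ligand processing, receptor-proximal signalling, negative regulators, related ligands and receptors and PDGF-induced genes, and markers of fibroblasts, pericytes, smooth muscle, endothelium, platelets, basal and luminal epithelium, macrophages, prostate secretory products, seminal vesicle, urothelium, adipocytes, nerve, skeletal muscle and erythrocytes. Named are *Olfm4*, every member at every probe set, called genes and up to 3 genes with the smallest p of a list, the 5 nearest measured neighbours of *Pdgfd* on either side, and the 3 genes most like each member. *Plau*, *St14*, *Msmb* and *Spink1* were added after their values were seen. Marker genes beyond those shown, and those of lists with no value near the members, are left to counts. The fit was tested on simulated data. Alternatives were no array day, a replicate block, ANOVA, array weights, robust variance with an intensity trend, median centring, quantile normalization, filters at a mean log2 value of 5 and of 7, the mean over a gene's probe sets, each array day alone, and leaving out arrays.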

Additional observations from a re-analysis of the deposited data

Results flagged for a closer look

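Of 30 groups of 4 arrays, a genotype at a member probe set, 3 held an array far from the other 3, and all 3 were knockout array 1. The rule flags about 1 in 20 groups of independent normal values. The share over all probe sets was not counted, and probe sets on the same array are not independent, so no excess is read from this count. *Pdgfb* at 1450414_at had a log2 value of 6.40 on that array, and the next knockout array had 5.75, a gap of 0.855 of the whole range of the group. *Pdgfra* at 1421916_at had 5.78 there and 5.38 on the next knockout array, a gap of 0.838 of the range. *Pdgfrb* at 1417148_at had 8.51 there and 7.94 on the next, a gap of 0.943 of the range. The same array was the highest for fibroblast, pericyte, smooth muscle, endothelial and platelet markers, as given above. It was low in the prostate secretory products *Msmb*, *Spink1* and *Apof*, but not in *Pbsn* and *Tgm4*. Their part in these values was not tested.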

How the results depend on the processing

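The difference of *Pdgfd* kept its direction under all alternatives run. Its groups did not overlap at any of its probe sets, so leaving out arrays or splitting by day could not have turned it. The kept direction is therefore not read as support. The difference was -1.65 as the mean of all *Pdgfd* probe sets, which include those near background, and between -2.94 and -2.35 when 1 array was left out. Where its calls were lost is given beside them above. With 1 array left out, *Pdgfra* was between 0.16 and 0.35, *Pdgfb* between 0.078 and 0.38 and *Pdgfrb* between 0.093 and 0.53. *Pdgfa* changed sign as the mean of its probe sets (-0.034), *Pdgfb* and *Pdgfrb* on array day 1 alone (-0.04 and -0.06), and *Pdgfrl* under 3 alternatives.

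Of the 20 neighbours of *Pdgfd*, 0 were called on either array day alone, where 1 and 2 had an unadjusted p under 0.05 in limma, and 0 with a mean log2 value of at least 7, which leaves out *Casp4*, while 1 was called each time 1 array was left out. The counts of markers without knockout array 1, and without it and wild-type array 1, were added after seeing the data. Calls among the other pathway genes were 0 under all alternatives, with 3 to 16 at an unadjusted p under 0.05. Called probe sets numbered 50, and 71 without array day, 24 in ANOVA, 73 with an intensity trend and robust variance, 62 with array weights, 4 on either day alone, and 17 to 43 with 1 array left out. The replicate numbers pair no samples by the labels (correlations of deviations 0.336, 0.173, 0.0433 and -0.00559), and 3 of 8 arrays correlated best with their own number. With the replicate number as a block, 20 probe sets were called, and the differences of the members were the same. Probe sets near background, such as 1446691_at and 1450413_at, limit what these arrays show of *Pdgfd* and *Pdgfb*.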

Other observations

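Markers of tissues around the prostate were read on the same arrays. Seminal vesicle markers were higher in mean for 6 of 6 (median 0.52), urothelial for 2 of 4 (median 0.015), adipocyte for 1 of 2 (median -0.040), nerve for 0 of 2 (median -0.25), skeletal muscle for 3 of 4 (median 0.15), erythrocyte for 0 of 2 (median -0.14) and prostate secretory product genes for 2 of 5 (median -0.26). In the last list the negative *Msmb* and *Spink1* differences came from knockout array 1, as given above. For the 3 seminal vesicle markers with the smallest p, the direction turned without knockout array 1, and likewise without wild-type array 2. The differences were then -0.49 and -0.12 for *Svs2*, -0.55 and -0.43 for *Svs4* and -0.43 and -0.067 for *Pate4*. The direction of these 3 also differed between the array days, at -2.20 and 3.87 for *Svs2*, -1.52 and 2.29 for *Svs4* and -1.61 and 2.77 for *Pate4*. At its brightest probe set, none of these lists' genes was called by limma or had an unadjusted p under 0.05. The urothelial gene *Upk1b* had a difference of 0.37 there and 0.34, 0.49 and 0.31 at its other probe sets. The 0.49 had an unadjusted p = 0.00921 in limma (adjusted p = 0.270). The mean level of the adipocyte markers ran from 7.49 to 11.47 over knockout and from 7.82 to 12.07 over wild-type arrays.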
